A study of Mus musculus with 6 samples.

Results

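The genes described here encode the subunits of AMP-activated protein kinase (AMPK) and the kinases that switch it on. They are Prkaa1 and Prkaa2 for the catalytic α subunits, Prkab1 and Prkab2 for the scaffold β subunits, Prkag1 and Prkag2 for the nucleotide-binding γ subunits, Stk11 for LKB1 and Camkk2 for CaMKK2. The 8 genes were taken by name, as parts of the kinase or kinases upstream of it, with earlier results of these data known. They are 8 of the 55487 genes counted in liver RNA-seq. All 8 passed the filter on low counts and were among the 14046 genes tested.

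AMPK is the energy sensor of the cell. When AMP and ADP rise at the expense of ATP, they bind the γ subunit, and the activation loop of the α subunit is kept phosphorylated by LKB1; CaMKK2 phosphorylates the same loop when calcium rises. In liver, active AMPK phosphorylates the acetyl-CoA carboxylases and so restrains fatty acid synthesis. These steps are controlled by phosphorylation, and the libraries measured mRNA only, so neither AMPK protein nor its activity was read here.

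Livers came from 6 wild-type male mice on a C57BL/6J background, kept on a normal chow diet and collected at 17 weeks of age, with 1 library per mouse. Of these, 3 had received GalNAc-siNC, a control small interfering RNA, and 3 GalNAc-siRnf10, which targets Rnf10, the gene of an E3 ubiquitin ligase. Both were given by subcutaneous injection; the GalNAc sugar binds a receptor of hepatocytes, so other liver cells and other organs were not the intended target. The study sequenced these livers to look for unintended targets of the siRNA, and 1 siRNA against Rnf10 stands for the knockdown.

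Libraries held between 26854377 and 33058645 counts. Values called normalized counts are counts scaled by TMM to the mean library, and differences are log2 fold changes of GalNAc-siRnf10 against GalNAc-siNC with their standard error, called at an edgeR adjusted p under 0.05. Rnf10 was at 3869, 4536 and 4040 normalized counts in the GalNAc-siNC mice and at 1738, 1820 and 1793 in the GalNAc-siRnf10 mice, a log2 fold change of -1.22 ± 0.0715 (edgeR adjusted p = 3.29e-09), which fits the labels of all 6 mice. GalNAc-siNC mouse 1 stood apart from the other control mice. The chi-square of its counts against theirs was 27.8 and 27.1 per gene, against 9.53 between the other control mice and 4.45 to 5.07 among the GalNAc-siRnf10 mice. Deviations from the group mean were related to GC content across genes in control mouse 1 (Spearman's rho -0.39) and in control mouse 2 (0.46). For the 8 genes, the log2 fold change without control mouse 1 is given where its call or direction differs or its size moves by over 1.5 times.

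Of the 8 genes, 1 was called, Prkag2, and it was lower. That is 12.5% of the genes, against 14.0% of all tested genes called in either direction; none was called higher, against 6.71% of all genes, and 1 lower, against 7.28%. The median log2 fold change of the 8 genes was 0.12, against 0.0022 over all tested genes. The mice of the groups did not overlap for 4 genes (Prkaa1, Prkab2, Prkag2 and Camkk2), where 32.8% of all genes did not overlap, and the same 4 genes had an unadjusted edgeR p under 0.05, against 26.7% of all genes. The share of the genes called was thus close to the background.

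**Figure D1:**
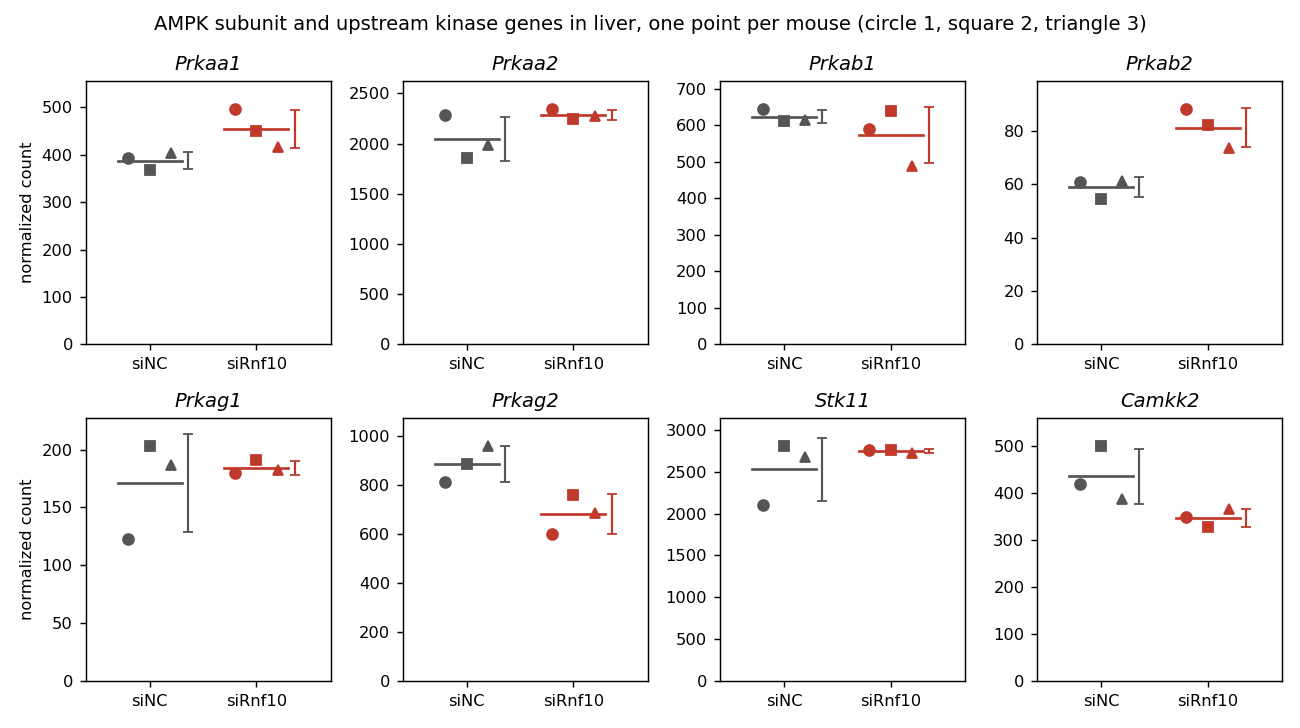
Normalized counts of the 8 genes in each mouse, with a circle, square and triangle for mice 1, 2 and 3 of a group, a bar for the mean and a whisker for the SD (n = 3). Every axis starts at 0. Prkaa1 and Prkab2 are higher in every GalNAc-siRnf10 mouse than in any control mouse, and Prkag2 and Camkk2 are lower; in the Stk11 and Prkag1 panels GalNAc-siNC mouse 1 lies below the other 5 mice.

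The α subunits carry the kinase domain. Prkaa1 (ENSMUSG00000050697, chr15:5143861-5181899 on the plus strand, GRCm38), encoding α1, was at 393, 367 and 403 normalized counts in the control mice and at 496, 450 and 416 in the GalNAc-siRnf10 mice. All 3 values after knockdown lay above the highest control, by a small margin for mouse 3. The means were 388 ± 18.6 and 454 ± 40.1 (SD, n = 3), a log2 fold change of 0.23 ± 0.105 (95% interval 0.0042 to 0.45), which did not pass the correction (edgeR adjusted p = 0.178). The exact two-sided permutation test over mice gave p = 0.1, the smallest it can give with 3 against 3.

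Prkaa2 (ENSMUSG00000028518, chr4:105029874-105109890 on the minus strand), encoding α2, was at 2289, 1862 and 1987 normalized counts in the control mice and at 2343, 2241 and 2272 in the GalNAc-siRnf10 mice. Control mouse 1 lay among the GalNAc-siRnf10 mice, and the other 2 controls lay below them. The log2 fold change was 0.16 ± 0.0775 (95% interval -0.0051 to 0.32; edgeR adjusted p = 0.202). Without control mouse 1 it was 0.25 and was called (edgeR adjusted p = 0.00243), and limma with sample quality weights, which weighs down divergent libraries, also called it at 0.20 (adjusted p = 0.0451).

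The β subunits hold the trimer together and bind glycogen. Prkab1 (ENSMUSG00000029513, chr5:116013586-116024508 on the minus strand), encoding β1, was at 644, 613 and 616 normalized counts in the control mice and at 590, 639 and 489 in the GalNAc-siRnf10 mice. The groups overlapped, since GalNAc-siRnf10 mouse 2 was above 2 of the controls. The log2 fold change was -0.12 ± 0.103 (95% interval -0.34 to 0.094; edgeR adjusted p = 0.488), and it was -0.023 without GalNAc-siRnf10 mouse 3 and -0.21 without GalNAc-siRnf10 mouse 2.

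Prkab2 (ENSMUSG00000038205, chr3:97658193-97673812 on the plus strand), encoding β2, was at 60.9, 54.7 and 61.3 normalized counts in the control mice and at 88.2, 82.2 and 73.5 in the GalNAc-siRnf10 mice. It had the fewest counts of the 8 genes, and its groups did not overlap. The log2 fold change was 0.46 ± 0.201, with a 95% interval from 0.036 to 0.89, and did not pass the correction (edgeR adjusted p = 0.150).

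The γ subunits bind AMP, ADP and ATP. Prkag1 (ENSMUSG00000067713, chr15:98812797-98831521 on the minus strand), encoding γ1, was at 123, 203 and 187 normalized counts in the control mice and at 180, 191 and 182 in the GalNAc-siRnf10 mice. Control mouse 1 was the lowest of all, and the other controls overlapped the GalNAc-siRnf10 mice. The log2 fold change was 0.12 ± 0.170 (95% interval -0.24 to 0.47; edgeR adjusted p = 0.716), and it turned to -0.081 without control mouse 1 (edgeR adjusted p = 0.768).

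Prkag2 (ENSMUSG00000028944, chr5:24862744-25100642 on the minus strand), encoding γ2, was at 812, 884 and 959 normalized counts in the control mice and at 600, 760 and 685 in the GalNAc-siRnf10 mice. Every GalNAc-siRnf10 mouse lay below every control mouse, and the nearest pair was 812 against 760. The means were 885 ± 73.6 and 682 ± 80.0 (SD, n = 3). Prkag2 fell by 0.37 ± 0.0984 on the log2 scale (95% interval -0.58 to -0.17; edgeR adjusted p = 0.0166), and its mean was 23.0% lower. The call was lost without control mouse 3 (-0.32, edgeR adjusted p = 0.0739), without GalNAc-siRnf10 mouse 1 (-0.29, 0.130) and without GalNAc-siRnf10 mouse 3 (-0.38, 0.0750).

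**Figure D2:**
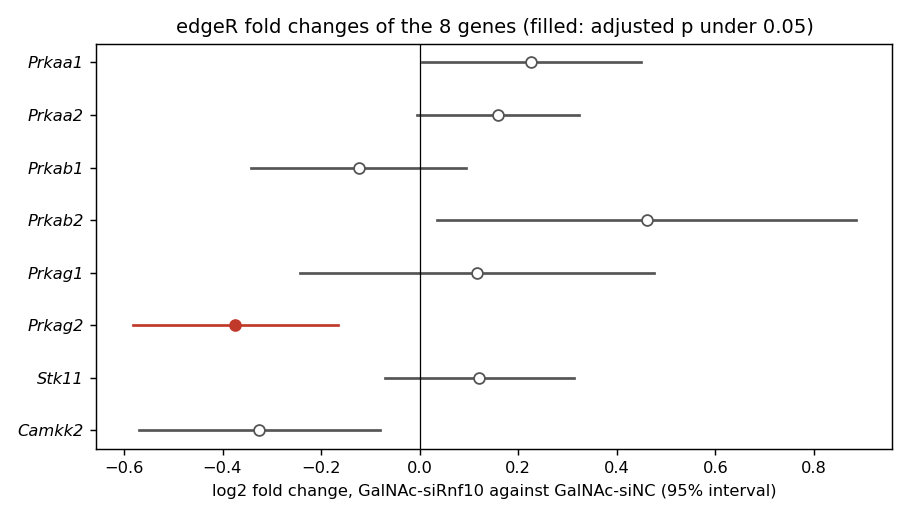
Log2 fold changes of the 8 genes, GalNAc-siRnf10 against GalNAc-siNC (3 mice each), with 95% intervals from edgeR; a filled point marks an adjusted p under 0.05. Prkag2 is the only filled point, at -0.37, and the intervals of Prkaa1, Prkab2 and Camkk2 also leave out 0 before correction.

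The remaining γ gene, Prkag3 (ENSMUSG00000006542, chr1:74738922-74749221 on the minus strand), is best known from fast skeletal muscle and is not one of the 8 genes. It had raw counts of 1, 7 and 8 in the control mice and 17, 48 and 39 in the GalNAc-siRnf10 mice. Although its counts were low, the groups did not overlap, and the normalized means were 5.33 ± 3.88 and 35.5 ± 14.3 (SD, n = 3). It rose by 2.76 ± 0.541 on the log2 scale (95% interval 1.62 to 3.91; edgeR adjusted p = 0.00209), and by 2.22 without control mouse 1. The gene passed the filter on low counts through the GalNAc-siRnf10 mice, where it was high, and a filter of at least 10 counts in every mouse removed it, so its call is no support beyond the counts themselves. The muscle markers Myh4 and Acta1 were at 0 in every library, and the 4 muscle markers summed to 0.702 to 0.950 CPM (counts scaled to a common library size) in the control mice and 0.670 to 0.747 in the GalNAc-siRnf10 mice. A neighbour on the opposite strand, Cyp27a1, a sterol hydroxylase gene chosen after its values were seen, ends 1029 bases away; it had 12467 to 15489 counts per library and a log2 fold change of 0.21 ± 0.0541 (edgeR adjusted p = 0.0127), a call that was lost without control mouse 3 and without each GalNAc-siRnf10 mouse. The strand setting of the counting is not given in the sources used here, and the part of reads from Cyp27a1 in the Prkag3 counts was not tested.

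For Prkag2, the called gene, and for Prkag3, the 300 bases around the RefSeq transcription starts (GRCm38.p6, 250 before to 50 after) are printed to show how many starts the counts pool. Prkag2 has 3 such windows, and the gene counts pool all of its starts, so the share of each start is unknown here. Capitals mark 2 of the motifs searched on either strand, the CCAAT box, spelled by its name, and the GC box, spelled GGGCGG. The TATA box, spelled TATAAA, was searched too, and matches can lie side by side or share letters. Of all 32851 RefSeq windows of this length, 37.4% hold the CCAAT box, 35.7% the GC box and 13.6% the TATA box.
Prkag2, upstream start, chr5:25100593-25100892, minus strand: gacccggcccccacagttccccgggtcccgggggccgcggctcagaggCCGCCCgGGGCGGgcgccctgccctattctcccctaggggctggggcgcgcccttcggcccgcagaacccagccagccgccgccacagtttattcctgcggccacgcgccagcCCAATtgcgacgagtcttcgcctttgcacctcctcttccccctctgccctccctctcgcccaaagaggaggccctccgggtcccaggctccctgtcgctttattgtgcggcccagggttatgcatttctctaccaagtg
Prkag2, middle start, chr5:24995704-24996003, minus strand: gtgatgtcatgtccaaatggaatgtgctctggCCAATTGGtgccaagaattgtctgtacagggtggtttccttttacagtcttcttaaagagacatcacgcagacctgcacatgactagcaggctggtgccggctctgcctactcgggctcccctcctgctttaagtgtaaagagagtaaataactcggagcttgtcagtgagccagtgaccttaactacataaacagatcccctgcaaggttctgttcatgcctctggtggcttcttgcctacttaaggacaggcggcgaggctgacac
Prkag2, downstream start, chr5:24908460-24908759, minus strand: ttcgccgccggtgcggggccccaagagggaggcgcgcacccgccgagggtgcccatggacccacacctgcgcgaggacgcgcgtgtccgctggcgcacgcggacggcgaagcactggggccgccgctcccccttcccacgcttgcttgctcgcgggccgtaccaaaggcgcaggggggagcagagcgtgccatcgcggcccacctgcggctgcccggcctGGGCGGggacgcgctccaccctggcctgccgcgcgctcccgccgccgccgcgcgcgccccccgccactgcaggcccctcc
Prkag3, chr1:74748906-74749205, minus strand: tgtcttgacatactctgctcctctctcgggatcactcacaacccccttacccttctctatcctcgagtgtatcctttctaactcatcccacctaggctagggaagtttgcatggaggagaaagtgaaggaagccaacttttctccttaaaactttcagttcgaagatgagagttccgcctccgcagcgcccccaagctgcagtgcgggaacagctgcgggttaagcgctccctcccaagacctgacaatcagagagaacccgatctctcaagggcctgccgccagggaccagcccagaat
The upstream Prkag2 window held 1 CCAAT box and 2 GC boxes and 25 CpG pairs, the middle one 2 CCAAT boxes on opposite strands and 6 CpG pairs, and the downstream one 1 GC box and 45 CpG pairs. The Prkag3 window held none of these motifs and 11 CpG pairs.

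Stk11 (ENSMUSG00000003068, chr10:80115803-80130682 on the plus strand), encoding LKB1, the main AMPK kinase of liver, was at 2103, 2810 and 2676 normalized counts in the control mice and at 2762, 2765 and 2721 in the GalNAc-siRnf10 mice. Control mouse 1 was low and the other 5 mice lay close together, with control mouse 2 the highest of all. The log2 fold change was 0.12 ± 0.0899 (95% interval -0.071 to 0.31; edgeR adjusted p = 0.429), and without control mouse 1 it was 0.0020. Corrected for GC content and length of the genes, an analysis added after the data were seen, it was 0.26 and was called (edgeR adjusted p = 0.0020).

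Camkk2 (ENSMUSG00000029471, chr5:122731170-122779409 on the minus strand), encoding the calcium-dependent kinase CaMKK2, was at 419, 500 and 387 normalized counts in the control mice and at 348, 328 and 366 in the GalNAc-siRnf10 mice. The 3 GalNAc-siRnf10 mice were below the lowest control. The means were 435 ± 58.3 and 347 ± 19.2 (SD, n = 3), and the log2 fold change of -0.33 ± 0.116 (95% interval -0.57 to -0.080) missed the threshold (edgeR adjusted p = 0.0742). It passed without control mouse 1 (-0.35, edgeR adjusted p = 0.0248) and without control mouse 3 (-0.41, 0.0447), but not without control mouse 2 (-0.22, 0.255) or without any 1 of the GalNAc-siRnf10 mice (0.135 to 0.253).

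To compare levels between the genes, TMM-scaled CPM were divided by the deposited gene length in kilobases. In both groups the order of the mean levels was Stk11, Prkaa2, Prkab1, Prkag2, Prkaa1, Prkag1, Camkk2 and Prkab2. In the control mice the level of Stk11 was 18.6 ± 2.76 CPM per kilobase and that of Prkab2 0.390 ± 0.0246 (SD, n = 3). Among the tested genes Stk11 stood at the 87.6th percentile and Prkab2 at the 19.4th. Neighbours in this order were separate in the mice of a group, except Prkaa1 (2.81 ± 0.135) and Prkag1 (2.65 ± 0.659) in the control mice and Prkag2 (3.55 ± 0.416) and Prkaa1 (3.29 ± 0.290) in the GalNAc-siRnf10 mice. The middle of the order depends on the length used: with the longest annotated transcript, the order in the control mice was Stk11, Prkab1, Prkag2, Prkaa2, Prkag1, Camkk2, Prkaa1 and Prkab2.

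**Figure D3:**
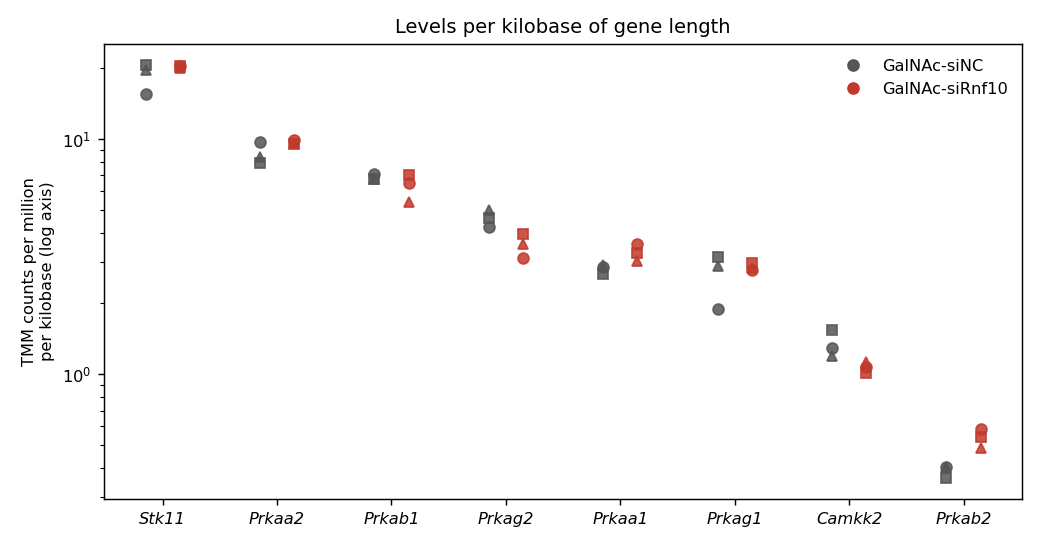
Levels of the 8 genes in each mouse, in TMM-scaled CPM per kilobase of deposited gene length on a log axis, with control mice in grey on the left and GalNAc-siRnf10 mice in red on the right. Stk11 is highest and Prkab2 lowest in all 6 mice, and at this length Prkag2 comes down to the level of Prkaa1 in the GalNAc-siRnf10 mice. With the longest transcript as length, their means in these mice were apart, at 6.90 for Prkag2 and 3.29 for Prkaa1.

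Ratios between paralogs within a mouse do not depend on the scaling of the library. Prkaa2 made up 75.4% ± 1.63 of the summed α level in the control mice and 74.6% ± 1.38 in the GalNAc-siRnf10 mice (SD, n = 3), with overlapping groups (exact permutation p = 0.6). The level of Prkab1 was 17.6-fold that of Prkab2 in the control mice and 11.7-fold in the GalNAc-siRnf10 mice. The log2 ratio of Prkab1 to Prkab2 was 4.14, 4.22 and 4.06 in the controls and 3.48, 3.69 and 3.47 after knockdown, without overlap (exact permutation p = 0.1). Prkab2 thus made up 5.38% ± 0.277 and 7.91% ± 0.625 of the summed β level.

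For the γ pair the log2 ratio of Prkag1 to Prkag2 was -1.15, -0.55 and -0.79 in the controls and -0.16, -0.42 and -0.34 after knockdown, also without overlap (exact permutation p = 0.1). Prkag2 made up 63.5% ± 5.05 of the summed level of the γ genes in the control mice and 52.6% ± 1.28 in the GalNAc-siRnf10 mice, and Prkag3 0.628% ± 0.433 and 4.75% ± 1.61. The summed γ level was 7.30 ± 1.01 and 6.73 ± 0.628 CPM per kilobase (exact permutation p = 0.5). Stk11 was 13.8-fold and 18.9-fold the level of Camkk2, with non-overlapping groups (exact permutation p = 0.1). The β, γ and kinase ratios each hold a gene whose own groups did not overlap (Prkab2, Prkag2 or Camkk2). No share of non-overlapping ratios over other gene pairs was computed, and 32.8% of all single genes did not overlap. With the longest transcript as length, Stk11 was 7.69-fold and 10.5-fold the level of Camkk2. At that length Prkab1 was 25.4-fold and 16.8-fold the level of Prkab2. Prkag1 was then 0.381-fold and 0.548-fold that of Prkag2, against 0.563-fold and 0.809-fold with the deposited length. The length cancels in the group difference of a log2 ratio, but the β and γ shares and the summed γ level depend on it. In bulk liver, fewer cells of a type and less RNA per cell cannot be told apart for any of these values.

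**Figure D4:**
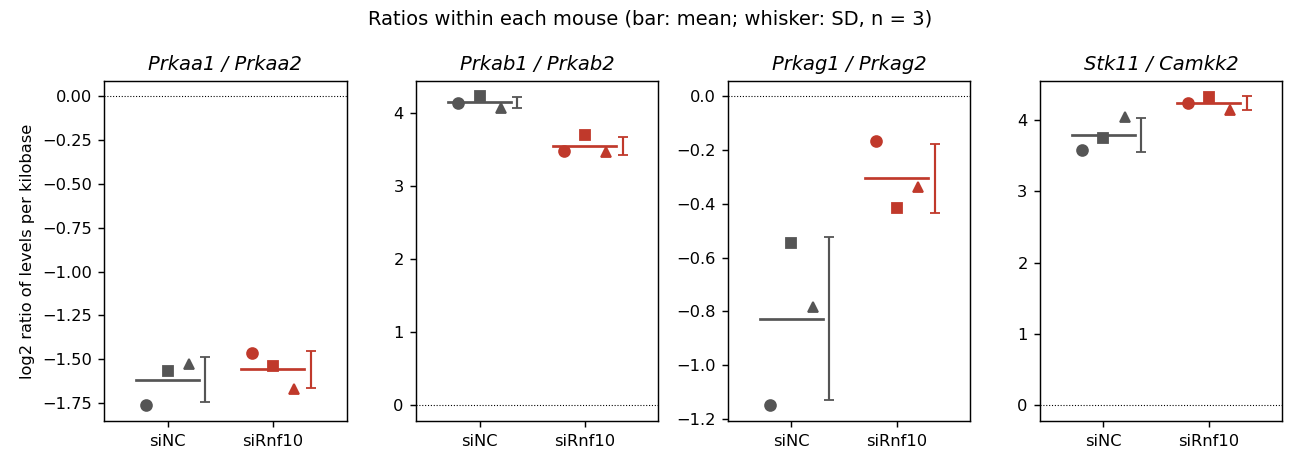
Log2 ratio of the levels per kilobase of 2 genes in the same mouse, for the α, β and γ pairs and for Stk11 to Camkk2; symbols are mice 1 to 3 of a group, bars are means and whiskers the SD (n = 3), and the dotted line marks equal levels. The groups overlap for Prkaa1 to Prkaa2 only, and no share of non-overlapping ratios over other gene pairs was computed.

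Of 8 hepatocyte markers, 5 were called higher (Alb, Ttr, Cps1, Cyp2e1 and Tat), against 6.71% of all tested genes. The other 3 were not called, with log2 fold changes from -0.11 to 0.084. The list summed to 63404 to 69896 CPM in the control mice and 90576 to 92177 in the GalNAc-siRnf10 mice. Most of this sum was Alb, with 1057264 to 1879205 raw counts per library, where the largest sum of the list was 2864127. The part of these marker differences in the values of the 8 genes was not tested. Kupffer cell markers summed to 178 to 202 and 177 to 186 CPM, with none of 6 called, and cholangiocyte markers to 6.38 to 8.65 and 4.95 to 5.66, with none of 4 tested called. Sinusoidal endothelial markers summed to 64.8 to 65.7 and 67.6 to 69.7 CPM and stellate cell markers to 92.5 to 96.6 and 104 to 106. In each list 2 of 6 were called higher, against 6.71% of all tested genes. In the sinusoidal list these were Clec4g and Lyve1, and the other 4 markers had log2 fold changes in both directions, from -0.26 to 0.32. The median log2 fold change of the stellate list was -0.23; Dcn and Reln were called higher, and the other 4 markers had values from -0.27 to -0.20. Neutrophil markers summed to 1.09 to 2.27 and 0.569 to 0.782 CPM, and the 1 tested, S100a9, was called lower. The part of these cells in the values of the 8 genes was not tested either.

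The genes whose profile over the 6 mice was most like that of Prkag2 were Pla2g15, a lysosomal phospholipase gene, Ppl, which encodes periplakin, and Serpina9. Their root mean square distances on the centred log2 scale were 0.0452, 0.0462 and 0.0602 among 10937 genes compared.

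Around the 8 genes, 85 genes of AMPK signalling, Prkag3 included, were listed by role, and 79 were tested. Of these, 20 were called, 9 higher and 11 lower, or 25.3% against 14.0% of all tested genes. The median log2 fold change of the 79 was -0.031. The lists were written with earlier results of these data known, so these shares are not an independent comparison. Prkag3 is among the 9 higher genes. With at least 10 counts required in every mouse, which removed Prkag3, 19 were called, 8 higher and 11 lower, against 15.2% of all genes tested. Without GalNAc-siRnf10 mouse 1, 2 and 3 the count was 12, 13 and 13, and the share of all tested genes called was 7.27%, 7.84% and 7.78%. Upstream of AMPK, none of 7 tested genes of the LKB1 complex and other upstream kinases passed, none of 3 calmodulin genes and none of 6 genes of the lysosomal AMPK-activating complex, with median log2 fold changes of -0.047, -0.049 and 0.21.

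Among 10 tested kinases that LKB1 activates besides AMPK, 2 were called (20%), against 14.0% of all tested genes. Of these, Nuak2 fell and Sik1 rose. Nuak2 was at 550, 494 and 581 normalized counts in the control mice and at 296, 243 and 268 in the GalNAc-siRnf10 mice. It fell by 1.01 ± 0.113 on the log2 scale (edgeR adjusted p = 7.51e-06). Sik1, a salt-inducible kinase gene that fasting signals raise in liver, had a log2 fold change of 0.34 ± 0.0899 (edgeR adjusted p = 0.0179), and its call was lost without control mouse 3 and without each GalNAc-siRnf10 mouse.

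Of 17 tested regulators of AMPK, 3 were called (17.6%), close to the 14.0% of all tested genes. Adipor2, an adiponectin receptor gene, fell by 0.25 ± 0.0515 (edgeR adjusted p = 0.00292) and Flcn, which encodes folliculin, by 0.33 ± 0.0816 (0.0112). Nmt2, one of the enzymes that myristoylate the β subunits, rose by 0.35 ± 0.105 (0.0370). Flcn lost its call without GalNAc-siRnf10 mouse 1 or 2, and Nmt2 without control mouse 2 and without each GalNAc-siRnf10 mouse.

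Of the genes whose proteins AMPK phosphorylates, 13 of 27 were called (48.1%), against 14.0% of all tested genes. Of the 27, 5 were higher and 8 lower, against 6.71% and 7.28% of all tested genes. These lists too were written with earlier results of these data known, so the shares are not an independent comparison. In the lipid and sterol list 5 of 7 fell, against 7.28% of all tested genes, and none rose, with a median of -0.37. Acacb, the mitochondrial acetyl-CoA carboxylase, was at 2344, 2724 and 2230 normalized counts in the control mice and at 1582, 1552 and 1653 in the GalNAc-siRnf10 mice, and fell by 0.61 ± 0.0788 on the log2 scale (edgeR adjusted p = 4.19e-05). Every GalNAc-siRnf10 mouse was below every control. Srebf2, the sterol synthesis transcription factor, fell by 0.58 ± 0.0700 (1.76e-05), and Acaca, the cytosolic acetyl-CoA carboxylase, by 0.37 ± 0.0683 (0.00114).

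In the list of substrates in glucose metabolism and transcription, 5 of 14 rose and 3 fell, against 6.71% and 7.28% of all tested genes. Pfkfb3, one of the bifunctional enzymes that set the level of fructose 2,6-bisphosphate, was at 438, 411 and 388 normalized counts in the control mice and at 2072, 2208 and 2275 in the GalNAc-siRnf10 mice. It rose by 2.40 ± 0.0811 on the log2 scale (edgeR adjusted p = 3.44e-12), a 5.30-fold difference of means. Its relative Pfkfb2 rose by 0.84 ± 0.123 (1.39e-04), Gys2, the liver glycogen synthase, by 0.48 ± 0.0554 (1.13e-05) and Cry1, a repressor of the circadian clock, by 0.75 ± 0.134 (9.92e-04). None of 6 tested substrates in mTORC1 signalling, autophagy and mitochondria was called, with a median of -0.033.

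**Figure D5:**
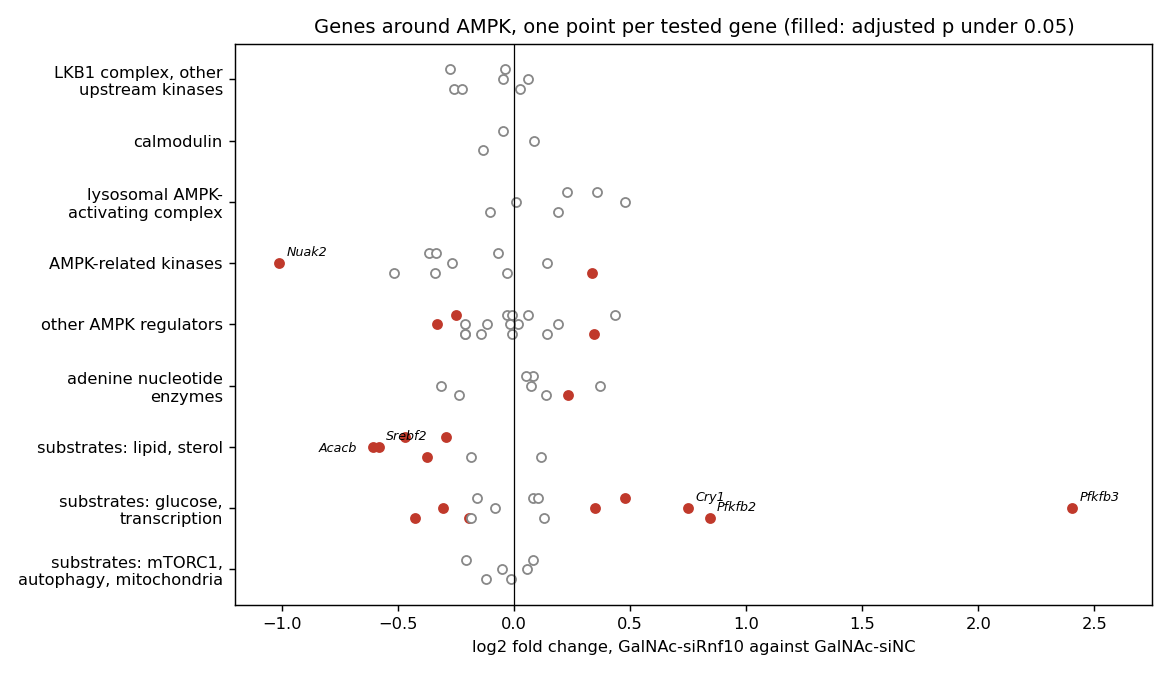
Log2 fold changes of the tested genes around AMPK, GalNAc-siRnf10 against GalNAc-siNC, with 1 point per gene in a row for each list and Prkag3 left out; filled red points have an edgeR adjusted p under 0.05. The filled points lie mostly in the lipid and sterol row, all at negative values, and in the glucose and transcription row, on both sides, while the rows for upstream kinases, calmodulin, the lysosomal complex and mTORC1, autophagy and mitochondria have none.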

How the data were processed

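RNA was extracted from liver and sequenced by the authors as stranded paired-end mRNA libraries with reads of 150 bases, mapped to GRCm38 with HISAT2, and deposited as raw counts per gene with a gene length in bases, the summed exon length of the model; the counting tool, annotation release and strand setting are not given in the sources used here. Groups were taken from the labels, which name 1 batch for all mice. The 8 genes and all lists were chosen with earlier results of these data known.

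The robust quasi-likelihood F-test of edgeR 4.0.16 (R 4.3.3) was applied to the counts, with low counts removed by filterByExpr, TMM scaling, treatment as the only term and Benjamini-Hochberg adjustment over 14046 genes. Single values were also compared by exact two-sided permutation tests over mice, whose smallest p is 0.1. Normalized counts refer to a mean effective library of 29667449. Named genes were the 8, Rnf10, Prkag3, the called markers, up to 4 called genes per list with the smallest adjusted p, and the 3 profiles nearest to a called gene; Cyp27a1 and 2900005J15Rik were chosen after their values were seen. Some genes that this rule names are not reported here. Gene coordinates are those of the deposited gene models, transcripts are from GENCODE M21 and promoter windows from RefSeq. All 8 genes and Prkag3 were found in each. The replicates were separate mice. The longest stretch shared by 2 paralogs was 35 bases (Prkaa1 and Prkaa2), short of a read. Of antisense genes that overlap exons, Prkag2os2 shares 795 bases with Prkag2 (5 to 15 counts), B130046B21Rik 950 with Prkag1 (3 to 8) and Cbarp 232 with Stk11 (15 to 39). Alternatives used DESeq2 1.42.0, limma 3.58.1, other scalings and filters, the mouse number as a block, GC and length correction (added after the data were seen) and leaving out each mouse. Figures were drawn with matplotlib 3.10.9. The authors' own DESeq2 results were not used.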

Additional observations from a re-analysis of the deposited data

How the results depend on the processing

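Other scalings, other filters on low counts and DESeq2 changed no call among the 8 genes. Leaving out each mouse in turn gave 0 to 3 called genes, against 1 with all mice, and 12 to 29 called genes of the 79 around them, against 20, while the share of all tested genes called moved from 14.0% to between 7.27% (without GalNAc-siRnf10 mouse 1: 0 and 12) and 20% (without GalNAc-siNC mouse 1: 3 and 29). The log2 fold change then ranged from -0.46 to -0.29 for Prkag2, from -0.41 to -0.22 for Camkk2, from -0.21 to -0.023 for Prkab1, from 0.0020 to 0.20 for Stk11, from 0.16 to 0.28 for Prkaa1, from 0.40 to 0.53 for Prkab2, from 0.093 to 0.25 for Prkaa2 and from -0.081 to 0.26 for Prkag1, and the difference in the log2 ratio of Prkaa1 to Prkaa2 from -0.012 to 0.12. Limma with sample quality weights called 2 of the 8 genes (Prkaa2 at 0.20), and the GC and length correction, chosen after the data were seen, 2 (Stk11 at 0.26), also with the replicate block (2 called, Stk11 at 0.26). Same-numbered mice did not deviate together (correlations across genes -0.0044, 0.018 and -0.032), so the numbers were not taken as pairs; with the replicate block alone 1816 genes were called, against 1965, and 1 of the 8. The order of levels changed with the longest transcript as gene length, at which in the control mice Prkag1 ranked 5, Camkk2 6 and Prkaa1 7. With 53 to 86 raw counts per library, Prkab2 is the least precise of the 8.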

Other observations

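Beside the upstream Prkag2 start, on the opposite strand and 340 bases away, lies 2900005J15Rik (chr5:25100983-25110109, GRCm38), a gene chosen after its values were seen. It was at 80.1, 71.2 and 97.8 normalized counts in the GalNAc-siNC mice and at 49.7, 55.5 and 37.3 in the GalNAc-siRnf10 mice, without overlap. Its log2 fold change was -0.80 ± 0.228 (edgeR adjusted p = 0.0261), and the call was lost without GalNAc-siNC mouse 3 and without GalNAc-siRnf10 mouse 1 or 3, the same mice whose removal ended the call of Prkag2.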
